A study of Mus musculus with 6 samples.

Results

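Levels of 4 cytokine genes, *Il6*, *Il11*, *Il10* and *Tnf*, and of the receptor gene *Csf2rb* were examined in whole livers after hepatic ischemia-reperfusion (I/R). These 5 genes are the members of a set chosen by name from a table of 3201 genes. The study asked what deletion of *Fgf18* in hepatic stellate cells (HSCs) does in this injury, and 3 *Fgf18* f/f livers were compared with 3 *Fgf18* △HSC livers. Both groups carried the floxed *Fgf18* allele, came from male mice and underwent I/R, in which the vessels to the left and middle lobes were clamped for 1 h and then released for 6 h by the study's account. The *Fgf18* △HSC mice also carried Cre under the GFAP promoter, so the deletion reaches any cell in which that promoter is or was active. For the *Fgf18* f/f livers the genotype comes from the study's text, since their label names only the injury. The age of the mice and the lobe taken for RNA are not given in the sources used here, and uninjured livers were not analysed here. Whether the labels match the deletion was not checked, because *Fgf18* was not analysed here.

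IL-6 and IL-11 belong to one cytokine family, in which each ligand binds its own receptor chain and then the shared chain gp130, and STAT3 carries the signal to the nucleus. In the liver, IL-6 drives hepatocytes to make acute-phase proteins, while IL-10, made by macrophages and lymphocytes, restrains the output of other cytokines, and TNF, released early by Kupffer cells, activates NF-κB in its target cells. *Csf2rb* encodes the common beta chain that GM-CSF, IL-3 and IL-5 receptors share, and it is found mainly on myeloid cells.

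The deposited table was selected on the comparison studied here, since every gene in it had passed the authors' limits on fold change and p-value between these livers, and the 5 genes were picked out of that table. Their differences between genotypes are therefore given as a description, with no test. Values were taken as TPM, though their unit is not named, and they scale reads by gene length and by a constant per liver. Reads were recovered from TPM and gene length, and 92.2 to 92.6% of the values checked in a liver lay within 0.02 of a whole read. If the values are TPM, the listed genes held 7.14 to 7.93% of a library's total in *Fgf18* f/f mice and 3.89 to 3.99% in *Fgf18* △HSC mice. In whole liver, fewer cells of a type and less RNA per cell cannot be told apart.

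Promoter sequences are shown first because *Il6*, *Il10* and *Tnf* were lower together in *Fgf18* △HSC livers while *Il11* was higher. RefSeq windows on GRCm38.p6 were at hand for 3 of the 5 genes, *Il6*, *Il11* and *Tnf*. The 250 bases before each transcription start are printed 5′ to 3′ in the sense of the gene, with matches to the searched motifs in capitals. Both strands were searched for NF-κB (GGGANTTTC), AP-1 (TGANTCA), the CRE core (ACGTCA), C/EBP (TTNNGNAA), STAT (TTCNNNGAA) and the TATA box (TATAAA), and the letters were chosen after the values of the genes were known.
Il6, chr5:30012864-30013113, plus strand: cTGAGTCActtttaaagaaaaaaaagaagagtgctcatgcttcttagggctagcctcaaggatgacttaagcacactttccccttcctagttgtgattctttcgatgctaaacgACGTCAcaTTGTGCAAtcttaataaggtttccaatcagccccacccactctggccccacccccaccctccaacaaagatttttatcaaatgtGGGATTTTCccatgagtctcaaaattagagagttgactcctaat
Tnf, chr17:35202008-35202257, minus strand: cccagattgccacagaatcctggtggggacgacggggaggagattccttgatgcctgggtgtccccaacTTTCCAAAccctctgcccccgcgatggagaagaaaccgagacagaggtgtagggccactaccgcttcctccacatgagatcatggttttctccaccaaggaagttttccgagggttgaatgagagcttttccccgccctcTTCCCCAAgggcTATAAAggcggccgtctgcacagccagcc
Il11, chr7:4778142-4778391, minus strand: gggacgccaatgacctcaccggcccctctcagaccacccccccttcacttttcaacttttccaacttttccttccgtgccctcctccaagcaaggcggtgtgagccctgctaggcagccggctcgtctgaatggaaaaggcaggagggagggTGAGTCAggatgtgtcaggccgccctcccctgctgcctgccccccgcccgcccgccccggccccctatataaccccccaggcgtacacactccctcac

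The *Il6* window held an AP-1 match 249 to 243 bases before the start, a CRE core at 136 to 131, a C/EBP match at 128 to 121 and an NF-κB match at 44 to 36. Of all 32851 RefSeq windows of this kind, 6.75% held the AP-1 letters, 6.47% the CRE core, 36.85% the C/EBP letters and 0.94% the NF-κB letters. The *Tnf* window held C/EBP matches on the opposite strand at 181 to 174 and 41 to 34 bases before the start and the TATA box letters at 29 to 24, which were in 12.37% of windows. The *Il11* window shown held an AP-1 match at 98 to 92, and the other *Il11* window, from an upstream start at chr7:4782858-4783107, held none of the 6 motifs. The STAT letters, found in 7.02% of windows, were in none of the 4 windows of these genes.

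AU-rich elements in the 3′ end of cytokine mRNAs are bound by proteins that set how long the mRNA lasts, of which tristetraprolin (*Zfp36*) and its action on *Tnf* are the classical example. The core TATTTAT, again chosen after the values were known, occurred 8 times in the 3′ UTR of *Tnf*, 6 times in that of *Il11*, 4 times in that of *Il10* and once in that of *Il6*, in GENCODE transcripts of GRCm38. It did not occur in that of *Csf2rb*. At least 1 copy was present in 27.5% of 20988 protein-coding genes and in 31.6% of the 2407 such genes of the table, and 3 or more in 4.11% and 4.94%. *Il11*, which was higher in *Fgf18* △HSC livers, and *Il10* and *Tnf*, which were lower, thus all carried 4 or more copies. For a view of such elements, 29 bases from the *Tnf*, *Il10* and *Il6* 3′ UTRs are given with the core in capitals, the *Tnf* stretch holding 5 overlapping or adjoining copies.
Tnf: TATTTATTATTTATTTATTATTTATTTAT
Il10: tcgtttgtacctctctccgaaaTATTTAT
Il6: ctttaagttaatttatgattgaTATTTAT

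*Il6* (ENSMUSG00000025746, chr5:30013114-30019981) was expressed at 2.98, 3.16 and 2.86 TPM in *Fgf18* f/f livers 1, 2 and 3, and at 0.754, 0.243 and 0.958 TPM in the *Fgf18* △HSC livers. The *Fgf18* f/f livers lay close together and all of them above the *Fgf18* △HSC livers, among which liver 2 was lowest. The reads behind these values were 194, 171 and 125 against 38, 9 and 46. The means were 3.001 ± 0.152 TPM (SD, n = 3) and 0.652 ± 0.368 TPM (SD, n = 3), and the difference on the log2(TPM + 0.1) scale, *Fgf18* △HSC minus *Fgf18* f/f, was -2.20 (SE 0.38). The ratio of reads, allowing for depth, was 4.38-fold lower in *Fgf18* △HSC livers (95% interval 3.51 to 5.53, counting error only). The coefficient of variation was 5.07% among *Fgf18* f/f livers, where counting alone gives 7.92%, and 56.5% among *Fgf18* △HSC livers, where counting gives 21.4%, a group in which liver 2 rests on 9 reads. Without *Fgf18* △HSC liver 2 the difference was -1.70, and without liver 3 it was -2.52.

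*Il11* (ENSMUSG00000004371, chr7:4772373-4782859), whose product signals through gp130 and is known for its part in fibrosis, was barely detected in *Fgf18* f/f livers, at 0.0186, 0.0446 and 0.0276 TPM from 1, 2 and 1 reads. Its reads came out whole at a length of 2012 bases rather than the 2081 of its joined exons in GENCODE, and the other two lengths that fit, 2011 and 2013, give the same reads. The *Fgf18* △HSC livers had 0.288, 0.130 and 0.578 TPM from 12, 4 and 23 reads. Every *Fgf18* △HSC liver was above every *Fgf18* f/f liver, but the lowest of them rested on 4 reads. The means were 0.0303 ± 0.0132 and 0.332 ± 0.227 TPM (SD, n = 3 each). From 4 reads in all against 39, the depth-adjusted ratio was 11.7-fold higher (95% interval 4.23 to 45.1, counting error only). The log2 difference of 1.596 (SE 0.36) depends on the value added before taking logs, and it was 0.36 with 1 TPM added and 2.90 with 0.01 TPM. *Il11* was thus the scarcest of the 5 genes in *Fgf18* f/f livers and moved opposite to *Il6*, its relative in the same family.

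Within each liver, *Il11* stood at 0.00622, 0.0141 and 0.00965 of the level of *Il6* in *Fgf18* f/f livers and at 0.381, 0.536 and 0.603 of it in *Fgf18* △HSC livers. The groups were far apart on this ratio, which no scaling of whole libraries can alter. Both genes had groups that did not overlap and moved in opposite directions, so their ratio had to separate the groups. In *Fgf18* f/f livers it rests on 1, 2 and 1 *Il11* reads, and in *Fgf18* △HSC liver 2 on 4 *Il11* and 9 *Il6* reads.

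**Figure D1:**
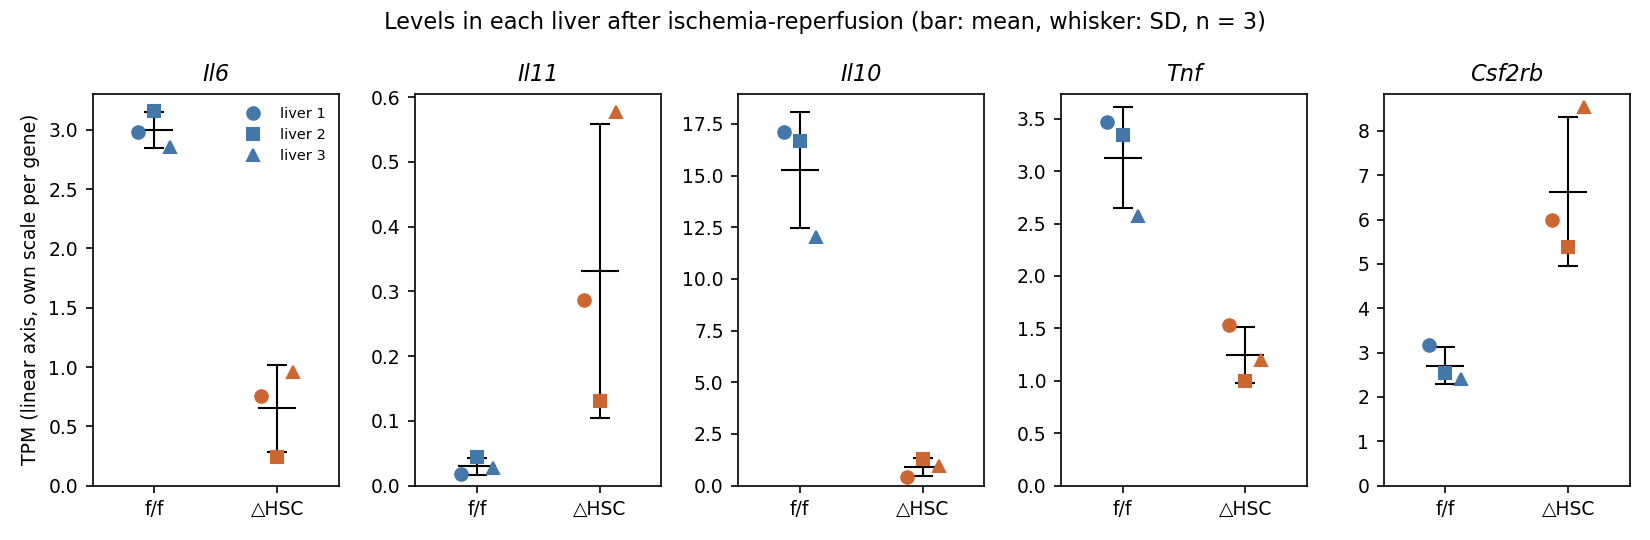
TPM of each gene (linear vertical axis starting at 0, own scale per gene) in the 3 *Fgf18* f/f and 3 *Fgf18* △HSC livers, with circles, squares and triangles for livers 1, 2 and 3, a bar for the mean and whiskers for the SD. *Il6*, *Il10* and *Tnf* lie lower and *Il11* and *Csf2rb* higher in all 3 *Fgf18* △HSC livers, with no overlap of the groups.

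Over the whole table, limma called 71.7% of genes at an adjusted p under 0.05 and an absolute log2 difference above 1, 41.6% as higher and 30.0% as lower in *Fgf18* △HSC livers. The groups did not overlap for 96.3% of genes. All 5 genes were among those called and had groups that did not overlap, and given how they were chosen nothing is read from that. Counts for the pathway lists below come from the same selected table and are set against the same shares, and against a median log2 difference of 0.88 over all 3201 genes. The adjusted p-values printed for list genes likewise describe genes already selected on these livers and are no independent support.

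Of 13 genes for ligands of the IL-6 family, 7 were in the table, of which 2 were called higher and 3 lower, with a median of -0.98. Besides *Il6* and *Il11*, *Ebi3*, the subunit that pairs with p28 to form IL-27, fell from 1.55 ± 0.311 to 0.515 ± 0.205 TPM (SD, n = 3 each), a log2 difference of -1.46 (adjusted p = 0.00214), and was not called with 1 TPM added. The remaining 4 were named after their values were seen. *Il27*, which encodes p28, fell by 1.86 on the log2 scale (adjusted p = 0.00578) and was listed at 0 in *Fgf18* △HSC liver 2. It was not called with 1 TPM added (-0.57). *Lif*, which signals through its own receptor and gp130, rose by a log2 difference of 1.07 (adjusted p = 0.00581), from 0.283, 0.371 and 0.498 TPM to 0.997, 0.632 and 1.14 TPM. The call of *Lif* was lost with livers rescaled (0.19), with 1 TPM added (0.47), and without *Fgf18* f/f liver 1 (0.91), *Fgf18* △HSC liver 1 (0.999) or *Fgf18* △HSC liver 3 (0.91). *Osm*, the oncostatin M gene, had 0.312, 0.277 and 0.367 TPM against 1.15, 0.288 and 1.11 TPM, with groups that overlap, a log2 difference of 1.01 and an adjusted p of 0.0512. It was called higher without *Fgf18* △HSC liver 2 (1.56, adjusted p = 0.000549), with voom on recovered reads (1.26, adjusted p = 0.0322) and with the replicate number as a block (adjusted p = 0.0287). *Ctf1*, the cardiotrophin gene, was at 1.39 ± 0.223 and 0.650 ± 0.0593 TPM, a log2 difference of -0.98 (adjusted p = 0.00153) that lies just inside the limit, and it was called lower with livers rescaled (-1.90), with voom (-1.06), with 0.01 TPM added (-1.07) and without any 1 of *Fgf18* f/f livers 1 and 2 and *Fgf18* △HSC livers 1 and 2 (-1.01 to -1.06). Both IL-27 subunits had the sign of *Il6* and *Lif* that of *Il11*. With livers rescaled 1 ligand gene, *Il11*, was called higher and 4 lower. With voom on recovered reads 3 were called higher and 3 lower, with a median of 0.10. The voom fit took only genes with whole recovered reads and did not hold all 7 ligands. Its median is therefore not comparable with -0.98. Of 19 genes for receptors and transducers of this family, among them *Il6ra*, *Il6st* and *Stat3*, only *Il27ra* was in the table (0.0257 to 0.175 against 0.130 to 0.487 TPM, log2 difference 0.96, adjusted p = 0.0462), and it was not called. *Il27ra* was called higher with 0.01 TPM added (1.65), with voom (1.71), and without *Fgf18* f/f liver 3 (1.27) or *Fgf18* △HSC liver 3 (1.25).

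Of 25 genes that STAT3 is known to induce, 9 were in the table and all 9 were called lower, with a median log2 difference of -1.25. *Batf* and *Vegfa*, named after their values were seen, lost their calls in some settings. *Batf* did so with 1 TPM added (-0.65) and without *Fgf18* f/f liver 1, *Fgf18* △HSC liver 1 or *Fgf18* △HSC liver 2 (adjusted p = 0.0507 to 0.0587), and *Vegfa* without *Fgf18* △HSC liver 2 (-0.99). *Socs1*, a feedback inhibitor of JAK kinases, fell from 14.2 ± 2.78 to 2.83 ± 0.642 TPM (log2 difference -2.29, SE 0.22, adjusted p = 5.86e-05). *Pim1*, a survival kinase, fell from 80.6 ± 8.42 to 18.4 ± 3.54 TPM (-2.14, SE 0.16, adjusted p = 2.63e-05). *Socs3*, the inhibitor that binds gp130 itself, had 183, 168 and 148 TPM against 46.7, 43.9 and 57.9 TPM (-1.75, SE 0.14, adjusted p = 3.21e-05). In all 3 the *Fgf18* △HSC livers lay well below the others and close to each other, while *Il6* varied 3.95-fold among the same livers. *Socs3* was also the single one of 13 receptors, ligand partners and feedback genes of the 5 that was in the table, the rest being *Il6ra*, *Il6st*, *Il11ra1*, *Il10ra*, *Il10rb*, *Tnfrsf1a*, *Tnfrsf1b*, *Csf2*, *Csf2ra*, *Il3ra*, *Il5ra* and *Csf2rb2*.

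The hepatic acute-phase genes, targets of IL-6 in hepatocytes, gave a like picture, since 10 of 34 were in the table and all 10 were called lower, with a median of -1.74. *Itih3* and *A2m*, named after their values were seen, lost their calls in some settings. *Itih3* (-1.01) did so without *Fgf18* f/f liver 1 (-0.96) or 2 (-0.99) and without *Fgf18* △HSC liver 1 (-0.96) or 3 (-0.90). *A2m* did so with 1 TPM added (-0.73). *Hamp2* fell from 38.9 ± 3.67 to 5.43 ± 0.467 TPM (log2 difference -2.82, adjusted p = 7.49e-06). *Hamp*, which encodes the iron hormone hepcidin, fell from 2712 ± 344 to 491 ± 114 TPM (-2.49, adjusted p = 2.97e-05). *Hamp* and *Hamp2* are close copies, and reads may be split between them. The summed level of the 10 genes was 12644 to 13761 TPM in *Fgf18* f/f livers and 4268 to 5793 TPM in *Fgf18* △HSC livers. Of 20 hepatocyte markers 4 were in the table, and all 4 moved with them and were called lower. *Alb*, *Apob*, *Ttr* and *Hnf4a* were among the markers not in the table, so no general fall of hepatocyte markers is shown. The sum of the 4, made up mainly of *Cyp2e1*, *Pck1* and *Glul*, was 2381 to 2766 TPM in *Fgf18* f/f livers against 736 to 975 TPM. The part of that fall in the acute-phase values was not tested.

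*Il10* (ENSMUSG00000016529, chr1:131019845-131024974) had 17.1, 16.7 and 12.04 TPM in *Fgf18* f/f livers, from 600, 487 and 284 reads, which made it the highest of the 5 genes there. In *Fgf18* △HSC livers it had 0.442, 1.30 and 0.965 TPM, from 12, 26 and 25 reads. The lowest *Fgf18* f/f liver was 9.27 times the highest *Fgf18* △HSC liver, the widest gap among the 5. Means were 15.3 ± 2.81 and 0.902 ± 0.432 TPM (SD, n = 3 each), a log2 difference of -4.03 (SE 0.33). The depth-adjusted ratio of reads was 18.1-fold lower (95% interval 14.1 to 23.7, counting error only). *Fgf18* △HSC liver 1 was lowest for this gene, and without it the difference was -3.64. In size the difference stood above those of 99.5% of the genes of the table, against 93.3% for *Il6*, 79.6% for *Il11*, 59.7% for *Tnf* and 56.6% for *Csf2rb*.

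Of 12 genes of the IL-10 family and its receptors, 2 were in the table, with 1 called lower, *Il10* itself. *Il20rb*, a receptor chain for IL-19, IL-20 and IL-24 that was named after its values were seen, had 1.72 ± 0.207 against 0.842 ± 0.0885 TPM, a log2 difference of -0.94 (adjusted p = 0.00128) that lies inside the limit. It was called lower with livers rescaled (-1.89), with voom or 0.01 TPM added (-1.02 each), and without *Fgf18* f/f liver 1 or *Fgf18* △HSC liver 2. Of 16 genes that IL-10 induces or that regulate it, 3 were in the table, and 1 was called higher and 2 lower. *Il1rn*, the IL-1 receptor antagonist, fell from 19.96, 20.2 and 32.6 TPM to 9.38, 10.3 and 10.1 TPM (log2 difference -1.24, adjusted p = 0.000566), and *Socs3* fell as given above. *Cxcl13*, the B-cell chemokine, rose from 0.195, 0.273 and 0.772 TPM to 3.19, 6.72 and 3.08 TPM (3.18, adjusted p = 0.000342). The list was therefore divided, and its lower members are also on the STAT3 list.

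*Tnf* (ENSMUSG00000024401, chr17:35199381-35202007) had 3.46, 3.34 and 2.57 TPM in *Fgf18* f/f livers, from 152, 122 and 76 reads. The *Fgf18* △HSC livers had 1.53, 0.998 and 1.203 TPM, from 52, 25 and 39 reads. All 3 were below the *Fgf18* f/f livers, with a smaller gap than for *Il10*, the lowest *Fgf18* f/f liver being 1.68 times the highest *Fgf18* △HSC liver. Means were 3.13 ± 0.482 and 1.24 ± 0.268 TPM (SD, n = 3 each), a log2 difference of -1.27 (SE 0.20). The depth-adjusted ratio of reads was 2.51-fold lower (95% interval 2.03 to 3.12, counting error only). With 1 TPM added before taking logs the difference was -0.88.

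Of 24 genes for ligands, receptors and adaptors of the TNF pathway, 4 were in the table, with 2 called higher and 2 lower. *Map3k8*, the kinase TPL2 that lipopolysaccharide and TNF signals use to reach ERK, fell from 6.87 ± 1.06 to 2.66 ± 0.311 TPM (log2 difference -1.33, adjusted p = 0.000162). *Mlkl*, the executor of necroptosis, rose from 2.62 ± 0.588 to 6.74 ± 0.878 TPM (1.34, adjusted p = 0.000311), and *Tab1*, a partner of the kinase TAK1, rose from 0.609 ± 0.0677 to 1.33 ± 0.130 TPM (1.02, adjusted p = 0.00104). Neither of the higher pair was called with the livers rescaled, at 0.33 and 0.09, and *Tab1* was not called either with 1 TPM added (0.54), without *Fgf18* f/f liver 1 (0.95) or without *Fgf18* △HSC liver 2 (0.95).

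Of 39 genes of the NF-κB pathway and its response to TNF, 14 were in the table, and 13 were called lower and none higher, with a median of -1.44. With 1 TPM added, *Relb* (-0.95) and *Bcl2a1a* (-0.64), named after their values were seen, were not called. *Tnfaip3*, which encodes the inhibitor A20, fell from 67.1 ± 5.19 to 6.89 ± 2.01 TPM (log2 difference -3.31, SE 0.21, adjusted p = 1.62e-05). *Nfkbia*, the inhibitor IκBα that NF-κB itself induces, fell from 361, 350 and 303 TPM to 42.5, 37.9 and 51.8 TPM (-2.94, SE 0.14, adjusted p = 9.03e-06). *Nfkbiz*, which codes for the coactivator IκBζ that *Il6* induction needs in macrophages, fell from 55.5 ± 3.72 to 12.7 ± 2.42 TPM (-2.14, SE 0.16, adjusted p = 2.26e-05). *Irf1*, named after its values were seen, was the exception, with a log2 difference of -0.99 (adjusted p = 0.000464), and it was called lower with livers rescaled (-2.01), without *Fgf18* f/f liver 1 (-1.01) and without *Fgf18* △HSC liver 3 (-1.13). These members hold both inhibitors and activators of NF-κB.

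Regulators of cytokine mRNA decay, which act on AU-rich elements or stem loops such as those in *Tnf* and *Il6*, were represented by 5 of 18 genes, with 3 called lower and none higher. With 0.01 TPM added or with voom, *Tia1* (1.10 and 1.16) and *Zc3h12b* (1.14 and 1.27), named after their values were seen, were called higher as well. *Zfp36* fell from 174 ± 3.59 to 84.9 ± 14.2 TPM (log2 difference -1.05, adjusted p = 0.000231), and without *Fgf18* △HSC liver 2 the value was -0.92 and no longer called. *Zc3h12a*, the nuclease Regnase-1 that cuts *Il6* mRNA, fell from 17.2 ± 2.91 to 4.95 ± 0.551 TPM (-1.77, adjusted p = 5.44e-05). *Arid5a*, which stabilises *Il6* mRNA, fell from 6.92 ± 1.05 to 1.82 ± 0.126 TPM (-1.87, adjusted p = 3.78e-05). Genes that shorten and genes that lengthen the life of *Il6* mRNA were thus both lower.

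*Csf2rb* (ENSMUSG00000071713, chr15:78325752-78353847) had 3.18, 2.53 and 2.41 TPM in *Fgf18* f/f livers, from 405, 269 and 207 reads. The *Fgf18* △HSC livers had 5.98, 5.37 and 8.53 TPM, from 591, 391 and 804 reads. All 3 were above the *Fgf18* f/f livers, and liver 3 was highest. Means were 2.71 ± 0.410 and 6.63 ± 1.68 TPM (SD, n = 3 each), a log2 difference of 1.24 (SE 0.20), and the depth-adjusted ratio of reads was 2.44-fold higher (95% interval 2.25 to 2.64, counting error only). This value depends on how libraries are scaled. With each liver rescaled by the median ratio of its listed genes, which takes the median difference over the table from 0.88 to 0.19, the difference of *Csf2rb* was 0.23 (SE 0.21). Relative to the other listed genes the difference of *Csf2rb* was thus about the size of its standard error, while *Il11* stayed higher. The rescaling shifted differences by a median of -0.87, so *Il6*, *Il10* and *Tnf*, already lower, could only stay lower. For the same reason, a gene called lower with livers rescaled gains no support from it, here or elsewhere in this report.

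The reads of *Csf2rb* came out whole with a length of 4764 bases, that of a single transcript, and not with the 7277 bases of all its exons joined in GENCODE. *Csf2rb2*, its mouse paralog, encodes a beta chain used by IL-3 alone and was not in the table. Of all stretches of 100 bases in the 4764-base transcript, 7.16% occurred unchanged in *Csf2rb2*, and at 150 bases 3.58% did. At either length *Il6*, *Il10*, *Il11* and *Tnf* shared no stretch with another gene. At 50 bases *Csf2rb* shared 18.96% of stretches and *Il11* 2.95%, with many other genes, while *Il6*, *Il10* and *Tnf* shared none, and the read length is not given in the sources used here. How reads that match both genes were counted is not given in the sources used here, so the *Csf2rb* values may hold some *Csf2rb2* reads or lack some of its own. Of 17 genes for cytokines, receptors, transducers and targets of the common beta chain, 4 were in the table, with *Csf2rb* called higher and the target gene *Pim1* lower. The other two were *Osm*, listed as a target and given above, and *Stat5a*, a transcription factor these receptors activate that was named after its values were seen, which had 4.08 ± 0.343 against 2.01 ± 0.0656 TPM (log2 difference -0.98, adjusted p = 0.000311). *Stat5a* was called lower with livers rescaled (-1.98), with voom or 0.01 TPM added (-1.02 each), and without *Fgf18* f/f liver 3 or *Fgf18* △HSC liver 3.

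**Figure D2:**
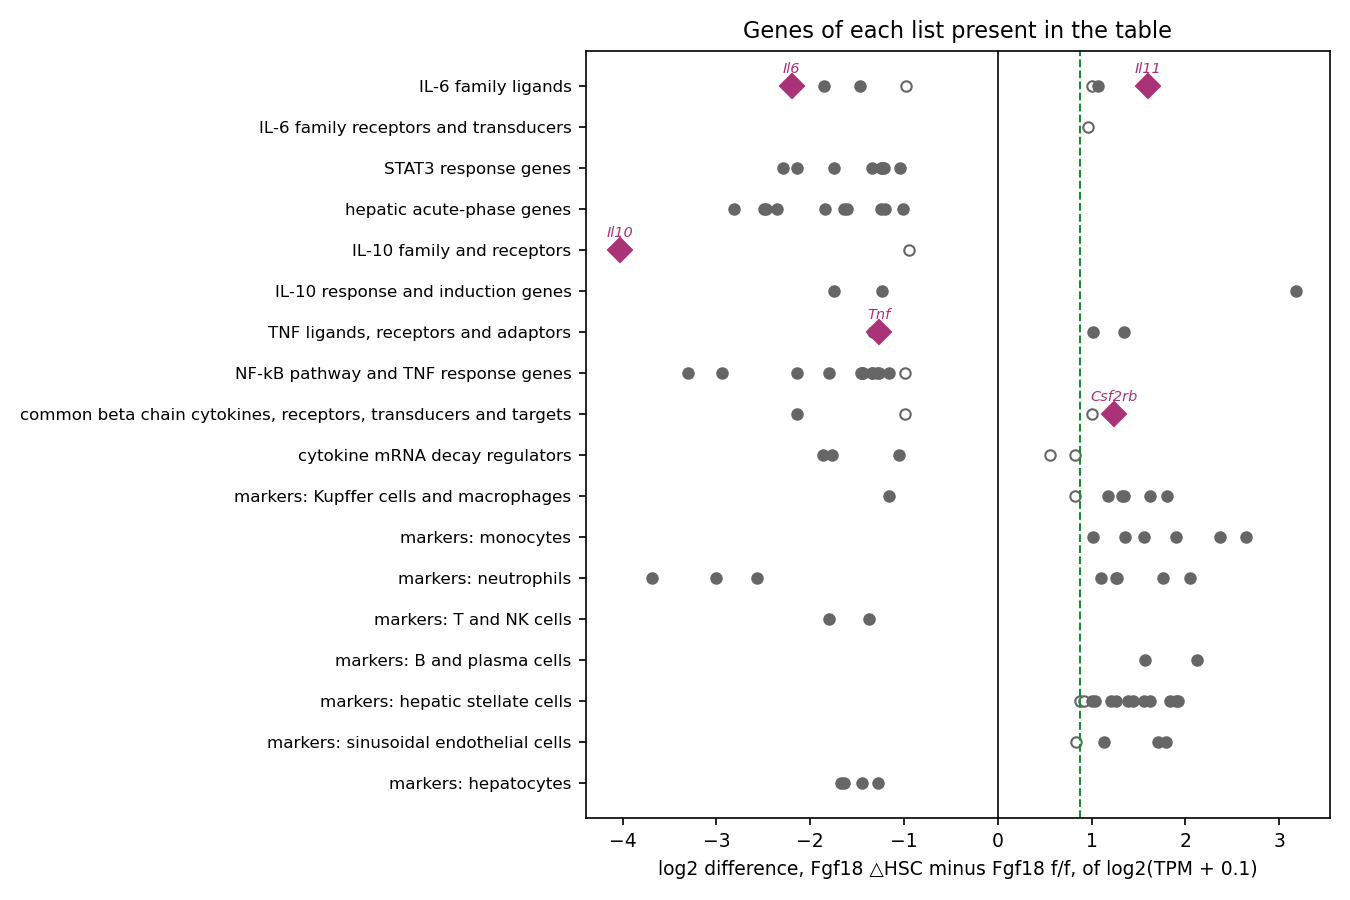
Log2 difference on the log2(TPM + 0.1) scale, *Fgf18* △HSC minus *Fgf18* f/f (horizontal axis), of each gene in the table, grouped by pathway and cell type marker list (vertical axis). Filled symbols are called by limma, open symbols are not, purple diamonds are the 5 genes and the dashed green line is the median of all 3201 genes, 0.88. All STAT3 response, acute-phase and NF-κB genes lie left of 0, while IL-6 family ligands lie on both sides.

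The order of the genes by TPM, which is per length, differed between genotypes. In *Fgf18* f/f livers *Il10* came first at 12.04 to 17.1 TPM. *Tnf* (2.57 to 3.46), *Il6* (2.86 to 3.16) and *Csf2rb* (2.41 to 3.18) followed with ranges that overlap, and *Il11* was last at 0.0186 to 0.0446 TPM. In *Fgf18* △HSC livers *Csf2rb* came first at 5.37 to 8.53 TPM. There *Tnf* (0.998 to 1.53), *Il10* (0.442 to 1.30), *Il6* (0.243 to 0.958) and *Il11* (0.130 to 0.578) each overlapped the next in the order.

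Ratios taken within a liver do not depend on the scaling of the library. *Il10* was 4.94, 4.99 and 4.68 times *Tnf* in *Fgf18* f/f livers, and 0.289, 1.30 and 0.802 times *Tnf* in *Fgf18* △HSC livers. The ratio was nearly the same in all *Fgf18* f/f livers and lower in every *Fgf18* △HSC liver, so *Il10* differed more than *Tnf*. *Il6* was 0.862, 0.946 and 1.11 times *Tnf* against 0.493, 0.243 and 0.796 times, which again did not overlap. *Il10* over *Il6* did overlap, at 5.73, 5.28 and 4.21 against 0.585, 5.35 and 1.01, because *Fgf18* △HSC liver 2 had the lowest *Il6* and the highest *Il10* of its group. *Csf2rb* over *Tnf* was 0.917, 0.759 and 0.937 against 3.91, 5.38 and 7.09, a pair of opposite direction whose ratio had to separate the groups. These ratios were chosen after the values of the genes were seen and carry no test.

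**Figure D3:**
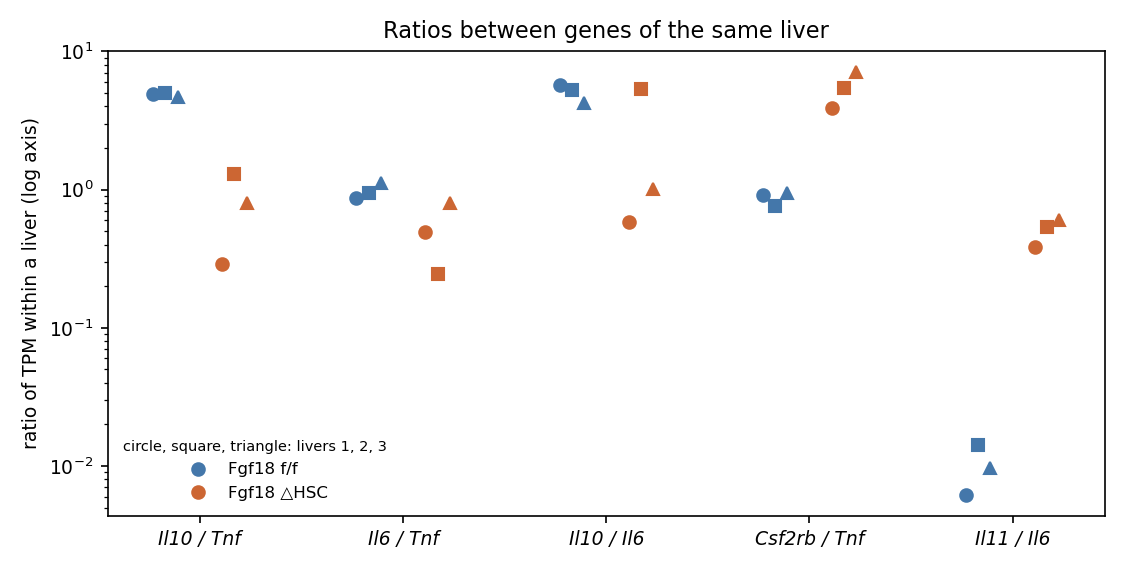
Ratio of the TPM of 2 genes in the same liver (log vertical axis) for 5 pairs, with blue for *Fgf18* f/f and orange for *Fgf18* △HSC and circles, squares and triangles for livers 1, 2 and 3. The groups are apart for every pair except *Il10* over *Il6*, where *Fgf18* △HSC liver 2, at 5.35, lies among the *Fgf18* f/f livers.

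The 3 *Fgf18* △HSC livers were not alike. *Il6*, *Il11*, *Tnf* and *Csf2rb* were all lowest in liver 2, and *Il6*, *Il11* and *Csf2rb* were highest in liver 3, whereas *Il10* was highest in liver 2. Neutrophil markers, of which 8 of 16 were in the table, had sums of 46.7, 28.9 and 73.8 TPM in these livers against 26.3 to 30.4 TPM in *Fgf18* f/f livers. Monocyte markers, 6 of 12, had sums of 10.8, 7.70 and 19.0 TPM against 2.12 to 2.52 TPM. Both lists therefore had the same order of livers as *Il6*, *Il11* and *Csf2rb*. Of the neutrophil markers 5 were called higher and 3 lower, and of the monocyte markers all 6 were called higher. The 3 lower ones, named after their values were seen, were the granule protein genes *Ngp* (9.16 ± 1.09 to 0.646 ± 0.264 TPM, log2 difference -3.68), *Camp* (-3.004) and *Ltf* (-2.57). They were called lower with livers rescaled too, a setting that moves differences downward. With 1 TPM added *Ltf* was not called (-0.93). Without *Fgf18* △HSC liver 3, 2 neutrophil markers were called higher, since *Csf3r* (0.75), *Cxcr2* (0.86) and *Il1r2* (0.88) were not, and *Csf3r* was not called either without *Fgf18* f/f liver 3 (0.95). Their part in the values of the 5 genes was not tested.

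Marker genes of other cell types in the table also differed between genotypes. Of 18 Kupffer cell and macrophage markers 7 were in the table, with 5 called higher and 1 lower and sums of 27.6 to 32.3 against 56.0 to 83.3 TPM, while the defining Kupffer cell genes *Clec4f*, *Vsig4* and *Timd4* were not among them. The lower one, *Slc40a1*, named after its values were seen, went from 7.47 ± 0.669 to 3.30 ± 0.295 TPM (log2 difference -1.16). It was called lower with livers rescaled (-2.17), where differences move downward, but not with 1 TPM added (-0.98). Of 18 T and NK cell markers, 2 were in the table and both were called lower, *Gzma* and *Gzmb*, with sums of 2.40 to 3.58 against 0.677 to 1.201 TPM. Neither was called with 1 TPM added (-0.59 and -0.98), and *Gzma* was not called either without *Fgf18* f/f liver 3 or without *Fgf18* △HSC liver 2. B and plasma cell markers (2 of 12) were both called higher, with sums of 3.19 to 4.80 against 9.96 to 15.6 TPM. HSC markers (13 of 20) had 11 called higher and sums of 13.003 to 14.8 against 33.9 to 45.5 TPM, and sinusoidal endothelial markers (4 of 14) had 3 called higher and sums of 12.1 to 14.6 against 27.0 to 39.2 TPM. With livers rescaled, the log2 differences of the macrophage markers *Cd68*, *C1qa* and *Lyz2*, the neutrophil markers *Csf3r* and *Il1r2*, the HSC markers *Ecm1*, *Vim* and *Tagln*, the endothelial markers *Lyve1*, *Gpr182* and *Pecam1*, and *Treml4* and *Ighm* were 0.08 to 0.81, and none of these was called. The monocyte markers *Chil3* and *F13a1* (1.39 and 1.74), the neutrophil marker *Mmp8* (1.04) and the plasma cell marker *Jchain* (1.39) were still called higher. By list, markers called higher after rescaling were 3 for monocytes, 1 each for neutrophils, B and plasma cells and HSCs, and 0 for macrophages and sinusoidal endothelial cells. With 1 TPM added, 2 monocyte, 4 macrophage, 4 neutrophil, 6 HSC, 3 endothelial and 1 B and plasma cell marker were called higher. None of 12 mast cell, basophil and eosinophil markers was in the table. *Il6*, *Il10* and *Tnf* were thus lower in livers where the listed macrophage and monocyte markers summed higher and the 2 listed cytotoxic lymphocyte markers lower. The part of any of these cells in the cytokine values was not tested.

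The genes with the most similar course over the 6 livers were sought among the 1128 protein-coding genes of the table with a mean of at least 1 TPM, by the distance between log2(TPM + 0.1) profiles centred on their own mean, with the 3 nearest named for each. All points share the same 6 libraries. The table was selected on the genotype difference, with groups that did not overlap for 96.3% of genes. The values of r are therefore set largely by that difference and are no sign of shared control. For *Il6* they were *Cxcl2* (distance 0.48, r = 0.99), a neutrophil chemokine at 60.0, 55.5 and 53.6 TPM against 12.98, 8.10 and 20.2 TPM, and then *Ccl5* (0.55, r = 0.98) and *Csf3* (0.58, r = 0.99), the G-CSF gene. All 3 also encode secreted signals and, like *Il6*, were lowest in *Fgf18* △HSC liver 2. For *Tnf* they were *Nrip1*, *Arid5b* and *Pdxk*, at distances of 0.15, 0.17 and 0.20 and r of at least 0.994, none of which is a cytokine gene. *Il10* had no gene so near, the closest being *Rnd1* (1.33), *Serpina3c* (1.37) and *Eif4ebp3* (1.52), with r of 0.96 to 0.98. The distance is not scaled to the size of a difference, and that of *Il10* was larger than in 99.5% of the table. *Il11* was nearest to *Slfn4* (0.36), *Gm5483* (0.37) and *Emilin2* (0.37), and *Csf2rb* to *Tmem101* (0.17), *Sh2d3c* (0.17) and *Lrrc32* (0.21). *Slfn4* had 2.49, 2.47 and 2.68 TPM against 6.71, 3.85 and 13.7 TPM, the same order of *Fgf18* △HSC livers as *Il11*.

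**Figure D4:**
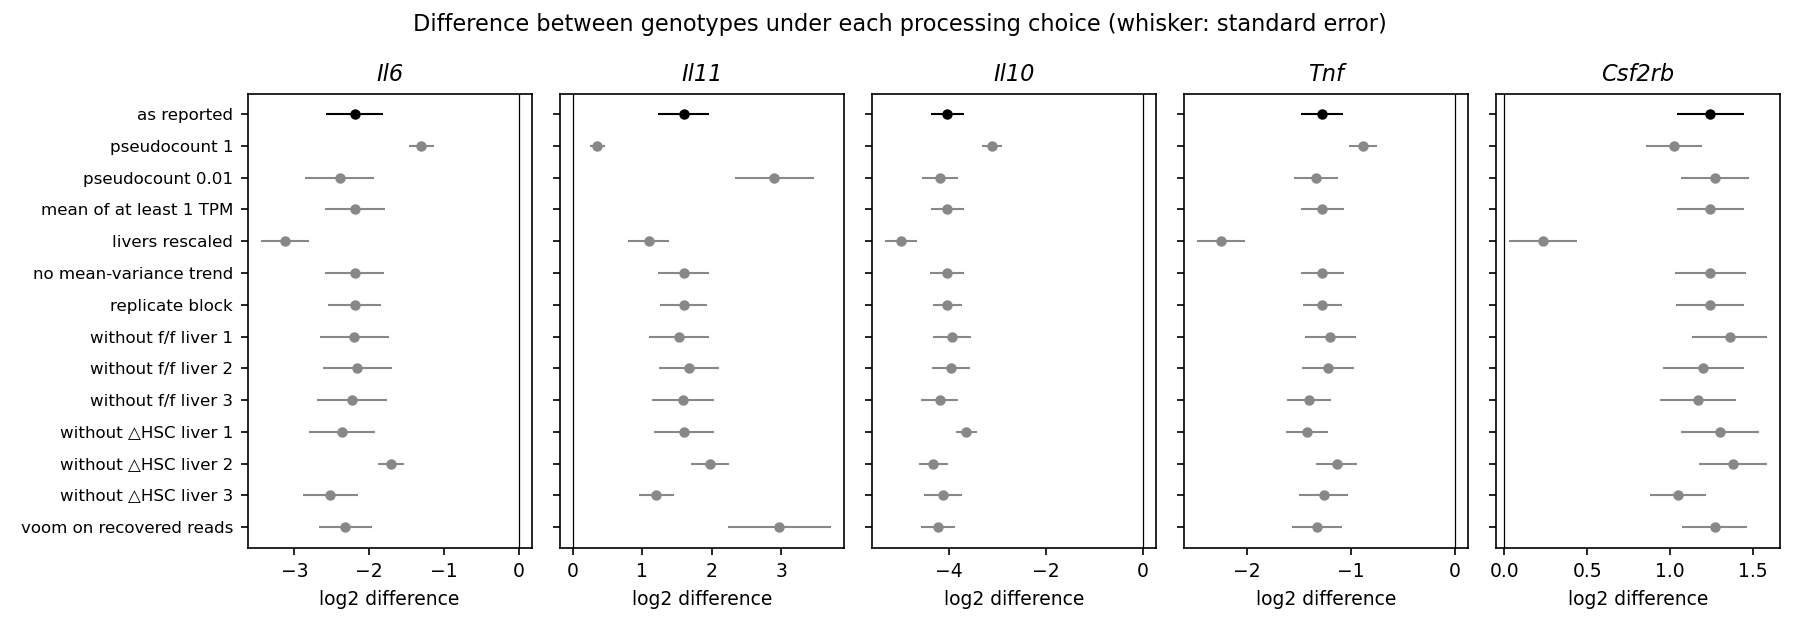
Log2 difference of each gene, *Fgf18* △HSC minus *Fgf18* f/f (horizontal axis, own scale per gene, whiskers for the standard error), under each processing choice (vertical axis), with the reported value in black at the top. No value crosses 0, *Csf2rb* comes nearest when livers are rescaled (0.23), and *Il11* runs from 0.36 with 1 TPM added to 2.97 with voom on recovered reads.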

How the data were processed

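Livers of 6 mice, 3 a group by their labels, were profiled by RNA-seq. According to the methods and the submitters' processing notes, the authors isolated RNA with Trizol, made stranded mRNA libraries, trimmed reads with cutadapt 2.5, aligned them to GRCm38 (mm10) with HISAT2 2.1.0, counted them per gene with featureCounts 1.6.3 and compared groups with DESeq2. The deposited values, 1 per gene and liver, carry no named unit and were taken as TPM. Reads came out whole, which shows scaling by gene length and by a constant per liver. Other units scaled in that way cannot be told from TPM by this. The table also holds the authors' own fold changes, p-values and direction marks. The fold changes and p-values were read only for the limits that every listed gene had passed, and the direction marks were not used. Library totals are unknown, and 1 read on a 1-kb gene was worth 0.0374 to 0.0555 TPM in *Fgf18* f/f and 0.0482 to 0.0655 TPM in *Fgf18* △HSC livers. Intervals cover counting error only.

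All 3201 genes were fitted with limma 3.58.1 in R 4.3.3 (linear model, empirical Bayes with a trend of the variance) after taking log2(TPM + 0.1). No block and no filter were used, and adjustment was by Benjamini-Hochberg. Fold changes of low genes are understated on this scale. A call needed an adjusted p under 0.05 and an absolute log2 difference above 1. The script was tested on simulated data, in which this fit recovered 162 of 200 planted changes with 4 false calls. Far fewer genes were changed there than are called in this table, so the error rate here is not measured by it. Positions and lengths came from GENCODE, which matched 3196 genes, and read ratios from Python 3.11.15 with scipy 1.17.1. The genes and lists were chosen with earlier results of these data known. Named from each pathway list were up to 3 called genes in each direction with the largest difference, provided that the groups did not overlap and 1 of them averaged 1 TPM or more. The listed partners and feedback genes and the 3 nearest profiles were also named, and up to 3 markers of each cell type. Of the genes taken by this rule, 1 is not reported here. The livers are numbered as separate samples. The p-values weigh the difference between groups against the spread between livers, with variances drawn toward a trend over this selected table.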

Additional observations from a re-analysis of the deposited data

How the results depend on the processing

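No gene of the 5 changed sign under any of the pseudocounts, filters, scalings, tools or left-out livers tried. Rescaling the livers moves differences downward and could not have changed the sign of *Il6*, *Il10* or *Tnf*. With a pseudocount of 1 the log2 differences were -1.30 for *Il6*, -3.11 for *Il10*, -0.88 for *Tnf* and 0.36 for *Il11*. With livers rescaled they were -3.13 for *Il6*, -4.99 for *Il10*, -2.25 for *Tnf* and 0.23 for *Csf2rb*. *Il11* was 2.90 with a pseudocount of 0.01 and 2.97 with limma-voom on recovered reads, and it left the fit when a mean of at least 1 TPM was asked. Over the table, 1333 genes were called higher and 961 lower. These counts were 266 and 566 with a pseudocount of 1, 1995 and 1048 with 0.01, 522 and 787 at a mean of at least 1 TPM, 252 and 1112 with livers rescaled, and 1892 and 959 with voom. Genes called among IL-6 family ligands went from 5 to 1 with a pseudocount of 1 and 2 at a mean of at least 1 TPM. IL-6 family receptors went from 0 to 1 with a pseudocount of 0.01 and with voom, and *Il27ra* was the gene called. The IL-10 family went from 1 to 2 with a pseudocount of 0.01, with livers rescaled and with voom. TNF ligands, receptors and adaptors went from 4 to 2 with a pseudocount of 1 and with livers rescaled, and mRNA decay regulators from 3 to 5 with a pseudocount of 0.01 and with voom, the 2 added calls being higher. The filter tests fewer genes. The voom fit also holds fewer, the 2942 genes with whole recovered reads in all livers. Apart from the filter, the cause of these changes was not tested. With each liver left out in turn, IL-6 family receptors gave 0 to 1 (1 without *Fgf18* f/f liver 3 or *Fgf18* △HSC liver 3) and the IL-10 family 1 to 2 (2 without *Fgf18* f/f liver 1 or *Fgf18* △HSC liver 2). *Il11* rests on 4 reads in all in *Fgf18* f/f livers.

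Replicate numbers 1 to 3 occur in both groups and number different animals. Deviations of same-numbered livers correlated at 0.06, 0.01 and 0.03, and not every liver correlated best with its own number. With the replicate number added as a block, limma called 1337 genes higher and 963 lower. Each number holds 1 liver of each group, so the block cannot move the log2 differences themselves, which stay at -2.20 for *Il6*, -4.03 for *Il10*, 1.596 for *Il11*, -1.27 for *Tnf* and 1.24 for *Csf2rb* by construction. Of the list genes, *Osm* alone changed its call under the block (adjusted p = 0.0287).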
